A study of Mus musculus with 12 samples.

Results

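The comparison described here was between T cells of wild-type (WT) mice and T cells of STINGgt/gt mice that had both been given only the solvent DMSO. Its members were the 3 libraries titled as WT T cells with DMSO and the 3 titled as STING KO T cells with DMSO, chosen by title alone, out of 12 libraries in the series. The other 6 libraries came from the same genotypes given the STING agonist 10-carboxymethyl-9-acridanone (CMA). Per the labels and the study's methods, the cells were CD4+ T cells from the spleens of C57BL/6 mice of the same gender and 8 to 12 weeks of age, the WT mice being a stock C57BL/6J line and the STINGgt/gt mice the separate Goldenticket line. They had been sorted from the spleen as naive T cells, then were expanded for 2 days on antibodies to CD3 and CD28, rested for 1 day and then held for 16 h with DMSO, so that neither genotype was resting, naive or untouched by activation. The Goldenticket allele is a missense change in Tmem173, the gene of STING, carried in every cell from the germ line, and it leaves the transcript in place. The study calls the libraries of a group biological replicates, but neither its methods nor the labels say that these came from separate animals or cultures, or that the WT mice were littermates of the STINGgt/gt mice. The p-values therefore measure the spread between libraries of a group, pooled over the 4 groups of the series, and genotype, colony and culture cannot be told apart.

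STING is a membrane protein of the endoplasmic reticulum that is switched on by cyclic dinucleotides, which the sensor cGAS makes when DNA is present in the cytosol. It then recruits the kinase TBK1, which phosphorylates the transcription factor IRF3, and type I interferon and NF-κB target genes follow. In T cells, activation through the antigen receptor sets in motion growth, division and the choice between helper cell programmes, each with its own cytokines and transcription factors.

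Each library held between 27414450 and 41791903 reads on genes in WT, and between 31548976 and 38454051 in STINGgt/gt. Levels are given as CPM, the reads of a gene scaled to the library total and to the other libraries, and differences as log2 (WT minus STINGgt/gt, so that a positive value is higher in WT), and a gene was called where the adjusted p of edgeR's quasi-likelihood test was under 0.05 over all 13811 genes tested. At that threshold 42.7% of the genes tested were called, 22.9% as higher in WT and 19.8% as lower, and the 3 libraries of a genotype lay wholly above or below the other 3 for 47.9% of genes. The counts of every gene group below are to be read against these shares. A scarce gene could pass the filter on low counts through the genotype with the higher level alone, so counts over the genes tested in a group describe it and no more. The first principal component, which separated the genotypes, held 72.8% of the variance. The next component held 10.2% and set WT replicates 2 and 3 furthest apart, at -20.97 and 20.52. Mitochondrial genes took 1.17% of reads in WT replicate 2 and 0.712% to 0.742% in WT replicates 1 and 3. In STINGgt/gt they took 0.817% to 0.987%. The median SD of a gene between libraries on the log2 scale was 0.095 in WT and 0.059 in STINGgt/gt. Most differences were small, since 82.9% of the genes called differed by less than 2-fold. The median difference was 0.44 among genes called higher and -0.31 among genes called lower, against a median over all genes tested of -0.0018. Differences of 4-fold or more were uneven in direction, with 231 genes higher in WT and 26 lower.

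**Figure D1:**
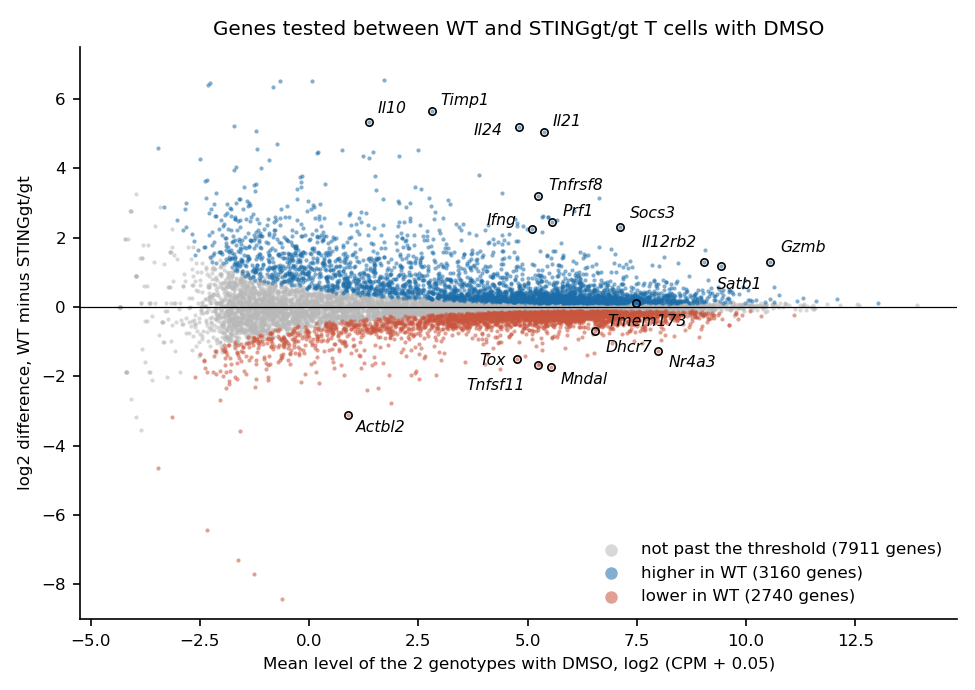
Each point is 1 of the 13811 genes tested. The x axis gives the mean level of both genotypes as log2 (CPM + 0.05), the y axis the log2 difference between WT and STINGgt/gt T cells with DMSO, and the colours whether edgeR called the gene higher in WT (3160 genes), lower in WT (2740 genes) or neither. Circled genes are described in the text, and the cloud reaches further above the zero line than below it among genes of intermediate level.

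The identity of the cells was checked first. Tmem173 (ENSMUSG00000024349, chr18:35733679-35740554 on the minus strand, GRCm38), the gene that carries the Goldenticket change, was read at 184, 190.3 and 183 CPM in the WT libraries and at 181, 170.5 and 168 CPM in the STINGgt/gt libraries (log2 difference 0.10, SE 0.0458, adjusted p = 0.0827). The groups did not overlap, but the difference was not past the threshold (it was without STINGgt/gt replicate 1), and a count per gene cannot show a missense allele, so the genotype labels were not tested by it. Cd4, the co-receptor that defines helper T cells, was abundant in both genotypes and lower in WT, at 434, 437 and 435 CPM against 529, 543 and 548 CPM (log2 difference -0.31, SE 0.0374, adjusted p = 5.2e-06). Per kilobase of transcript, Cd4 stood at 108 CPM in WT. Cd8a and Cd8b1, the co-receptor chains of cytotoxic T cells, stood at 6.27 and 17.8 CPM per kilobase. In STINGgt/gt these levels were 134 for Cd4, 1.49 for Cd8a and 9.73 CPM per kilobase for Cd8b1. Nnt (chr13:119335448-119408997), the gene of a mitochondrial transhydrogenase, was read at 48.7, 49.2 and 50.3 CPM in WT and 21.7, 20.4 and 21.7 CPM in STINGgt/gt (log2 difference 1.22, SE 0.0509, adjusted p = 1.9e-11). C57BL/6J mice, the stock given for WT, are known for a deletion within Nnt, although WT was the genotype with the higher Nnt level here. A count per gene cannot show that deletion, and the origin of the mice was not tested.

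Transcripts of the antigen receptor differed little. The chains Cd3d, Cd3g, Trac, Trbc1 and Trbc2 were not past the threshold, while Cd247, the ζ chain, was higher in WT (log2 difference 0.27, adjusted p = 0.000296) and Cd3e lower (log2 difference -0.14, adjusted p = 0.0176). The call of Cd3e was lost without WT replicate 1 and with the replicate block in the fit of the 6 DMSO libraries. Trac was at 212, 231 and 220.5 CPM in WT against 221, 209.9 and 215 CPM in STINGgt/gt (log2 difference 0.04). Among all 20 genes of the receptor complex and its first signalling steps, 4 were called higher and 4 lower in WT with a median of 0.01. The higher count fell to 2 under 8 of the alternative settings, among them the fit without WT replicate 2 and those without STINGgt/gt replicate 1 or 2. The adhesion receptor Cd2 was the member with the largest rise, at 360.3, 401 and 405 CPM against 266, 265 and 262 CPM (log2 difference 0.56, SE 0.0461, adjusted p = 6.93e-08), and the adaptor Lcp2 (SLP-76) was lower in WT at 502 to 537 against 617 to 662 CPM (log2 difference -0.32, adjusted p = 2.52e-05). Use of the β-chain V genes gave a second view of the populations. Of 20 Trbv genes tested, 1 was called higher in WT (Trbv17) and 1 lower (Trbv13-3), and no V gene's share of the 4700 to 7037 Trbv counts in a library differed by more than 0.745 percentage points between the genotype means. The most used segments were Trbv13-2 at 13.7% ± 0.373 of Trbv counts in WT and 14.3% ± 0.46 in STINGgt/gt (mean ± SD, n = 3), Trbv3 at 12.9% ± 0.714 and 12.2% ± 0.353, and Trbv1 at 12.2% ± 1.09 and 11.4% ± 0.108. Of 59 α-chain V segments tested, 1 was called in each direction.

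**Figure D2:**
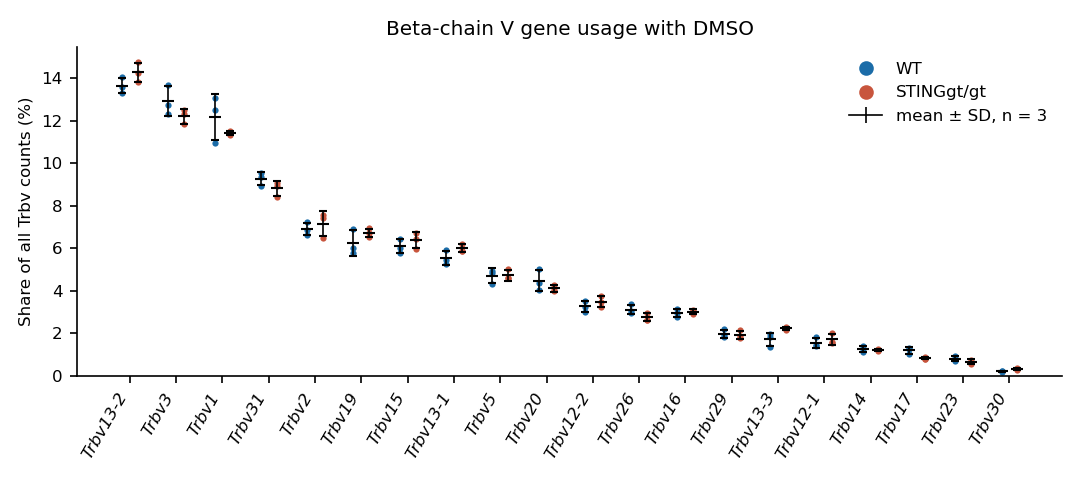
The share of all Trbv counts in a library (percent, y axis) is shown for 20 Trbv genes, those reaching 10 counts in each library. WT and STINGgt/gt libraries are separate points, with bars for the mean ± SD of 3 libraries. The points of both genotypes lie close together for each V gene, the largest gap between means being 0.745 percentage points at Trbv1.

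The study's methods describe a sort of naive T cells before expansion, which should have left few other cells. Transcripts of cells other than CD4+ T cells were nevertheless present in both genotypes and differed between them, and in bulk RNA fewer cells of a type and less RNA per cell cannot be told apart. The 17 B cell markers measured summed to between 1014 and 1093 CPM in WT and between 462 and 477 CPM in STINGgt/gt, and 16 of them were called higher in WT and none lower. The adaptor Blnk stood at 33.5, 37.3 and 38.3 CPM against 10, 9.85 and 10.6 CPM (log2 difference 1.84), the co-receptor gene Cd22 at 76.8 to 85.8 against 27.5 to 31.6 CPM (1.51), and Fcer2a, the low-affinity IgE receptor, did not pass the threshold at 36.4 to 45.8 against 38.1 to 43.2 CPM. MHC class II genes, by which B cells and myeloid cells present antigen, summed to 595 to 669 CPM against 385 to 401 CPM, with 9 of 10 higher in WT. The pair of CD8 genes summed to 47.0 to 52.4 CPM against 19.3 to 20.4 CPM, with Cd8a at 23.5, 22.8 and 22.1 CPM against 5.49, 5.8 and 5.01 CPM (log2 difference 2.06, SE 0.0738, adjusted p = 3.49e-12). Cd8b1 differed by less, at 24.9, 29.6 and 24.9 CPM against 14.9, 14.1 and 14.3 CPM (log2 difference 0.87). The 18 monocyte and macrophage markers reached 66.6 to 75.5 CPM against 45 to 47.7 CPM in sum. Of the 10 tested, 10 were called higher in WT, with a median difference of 1.46. Cst3 held most of the sum, at 36.1 to 40.8 against 32.6 to 34.7 CPM (log2 difference 0.20). Its call was lost without STINGgt/gt replicate 2. Defining members of that list, C1qa, C1qc and Fcgr1, were at 0 in all 6 libraries, and C1qb and Adgre1 reached at most 0.101 CPM. For natural killer cells the 13 markers summed to 47.8 to 55.3 CPM in WT and 45.2 to 52.8 CPM in STINGgt/gt. These ranges overlapped, although 10 of the 13 genes were called higher in WT, because Eomes, the most abundant of them, was lower in WT. Plasma cell markers were higher in WT for 7 of 9 tested, mast cell and basophil markers for 6 of 7, dendritic cell markers for 3 of 4 and γδ T cell markers for 3 of 4, with none lower except 1 dendritic cell marker without WT replicate 1. The mast cell and basophil count was 3 under the filter of at least 10 counts in every DMSO library, and the γδ T cell count 0 under limma on the authors' values. The defining dendritic cell genes Clec9a and Siglech were at 0 in all 6 libraries, and Xcr1 reached at most 0.0244 CPM. Single neutrophil, red cell, platelet and stromal genes were also higher, 1 of 1, 3 of 4, 2 of 4 and 2 of 5 tested, the last pair of counts being 1 under most alternatives. The red cell count was 0 under the same filter and 1 in the fits of the 6 DMSO libraries. Of the Y-linked genes, Ddx3y was read at 77.7 to 97.7 CPM in WT and 99.1 to 104 CPM in STINGgt/gt, Xist reached at most 0.0622 CPM, and 2 of 4 sex-linked genes tested were called lower in WT by at most 0.20 on the log2 scale. Both calls, Ddx3y and Kdm5d, were lost without WT replicate 1 and without STINGgt/gt replicate 3, that of Ddx3y also without WT replicate 2 and in the fit of the 6 DMSO libraries, and that of Kdm5d with the replicate block in that fit. How far these other cells set the differences in the T cell genes below was not tested.

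**Figure D3:**
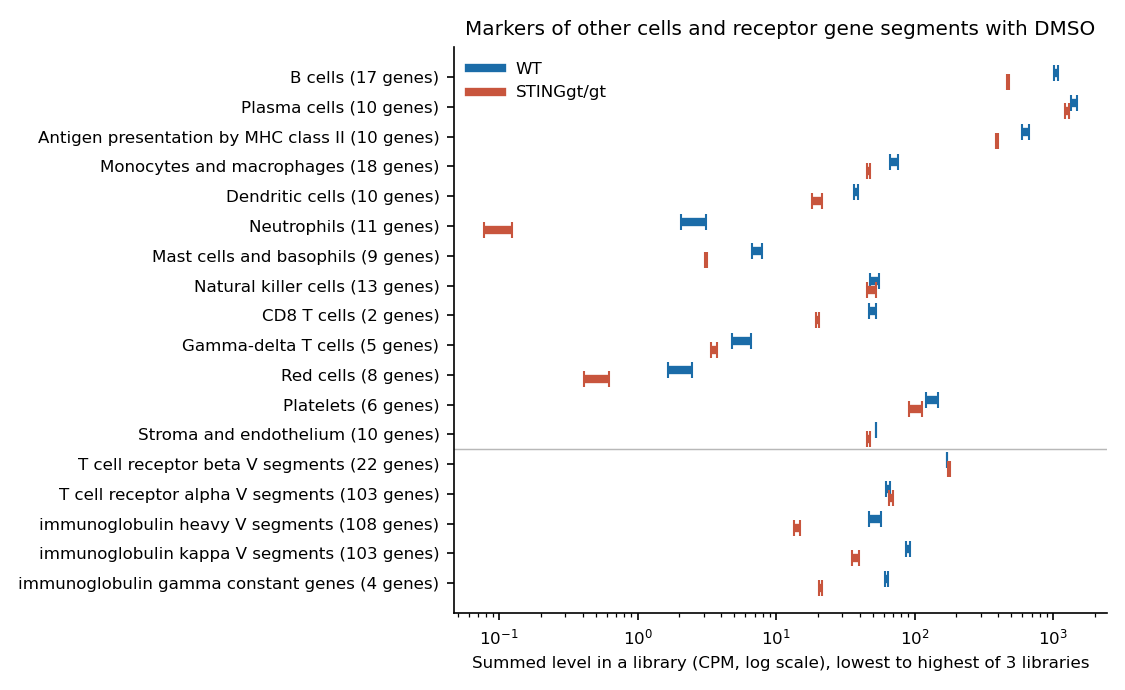
Bars span the lowest to the highest summed level of a gene list among the 3 libraries of a genotype (CPM, log scale), with the number of genes measured in parentheses. WT lies above STINGgt/gt for every marker list except that of natural killer cells, and for the immunoglobulin genes. The natural killer sums overlap, at 47.8 to 55.3 CPM in WT and 45.2 to 52.8 CPM in STINGgt/gt. Of those 13 markers 10 were called higher in WT, while Eomes, the most abundant, was lower. The T cell receptor V segments lie close together.

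Cytokine genes held several of the largest differences. Of 24 cytokine transcripts tested among 26, 15 were higher in WT and 7 lower, with a median difference of 1.40. The 3 at the head of the list were Il10 (chr1:131019845-131024974), Il24 (chr1:130882074-130887454) and Il21 (chr3:37222759-37232636). Il21, a cytokine that helper cells use to support B cells, was read at 73.3, 78.9 and 90.4 CPM in the WT libraries and at 2.52, 2.3 and 2.55 CPM in the STINGgt/gt libraries (log2 difference 5.04, SE 0.136, adjusted p = 2.15e-13). Il24, a member of the IL-10 family, was read at 50.1, 60.6 and 52.2 CPM against 1.34, 1.81 and 1.28 CPM (log2 difference 5.19, SE 0.175, adjusted p = 2.25e-12). Il10, an anti-inflammatory cytokine, was read at 3.5, 5.33 and 6.07 CPM against 0.155, 0.109 and 0.0934 CPM (log2 difference 5.34, SE 0.29, adjusted p = 4.26e-10), its STINGgt/gt level resting on a few reads per library. In all 3 genes every WT library lay more than 20-fold above every STINGgt/gt library. The gene Gm12534, called higher in WT with a difference of 4.53, lies on the opposite strand of Il21, and since the strand setting of the counting is not given in the sources used here, their reads cannot be told apart. Il19 and Il20, the neighbours of Il24 and Il10 on the same chromosome, reached at most 0.146 CPM in any library (looked up after the values of Il10 and Il24 were seen).

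Other cytokines moved with them at lower folds. Ifng, the effector cytokine of Th1 cells, was steady within each genotype at 57.5, 56.3 and 56.6 CPM against 12.6, 12.2 and 11 CPM (log2 difference 2.25, SE 0.0892, adjusted p = 1.05e-11). Tgfb3, a TGF-β that feeds into helper cell differentiation, stood at 68.3, 80.8 and 76.8 CPM against 11.5, 12.7 and 13.4 CPM (log2 difference 2.59, SE 0.0764, adjusted p = 5.47e-13). Csf1, the growth factor of macrophages, was at 13.5 to 15.1 CPM in WT and 2.27 to 2.52 CPM in STINGgt/gt (log2 difference 2.57). None of these ranges overlapped. Il13, Il3, Il4, Il17a and Il22, typical products of Th2 or Th17 cells or of both, were all called higher in WT, though none exceeded 8.19 CPM. Under a filter of at least 10 counts in every DMSO library the number of cytokines higher in WT was 9, because the scarce ones were no longer tested.

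A smaller set of cytokines was lower in WT. Il2, the T cell growth factor, stood at 3.46, 3.66 and 3.07 CPM against 6.16, 5.25 and 5.07 CPM (log2 difference -0.71, SE 0.142, adjusted p = 0.000753). Tnf and Lta, neighbouring genes of the TNF family on chromosome 17, went the same way, Tnf at 42.6, 45.2 and 33.6 CPM against 66.8, 63 and 66.5 CPM (log2 difference -0.70, SE 0.0772, adjusted p = 1.88e-06) and Lta at 427, 425 and 324 CPM against 616, 618 and 585 CPM (log2 difference -0.63, adjusted p = 9.21e-06). Spp1 (osteopontin) showed the largest fall of the list, with 25.5, 23.5 and 22.9 CPM in WT and 63.7, 60.8 and 44.5 CPM in STINGgt/gt (log2 difference -1.24, SE 0.119, adjusted p = 4.03e-07). Ltb, Csf2 and Il16 were lower in WT too, with differences of -0.39, -0.59 and -0.22, though the call of Csf2 was lost without WT replicate 3 or STINGgt/gt replicate 1.

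**Figure D4:**
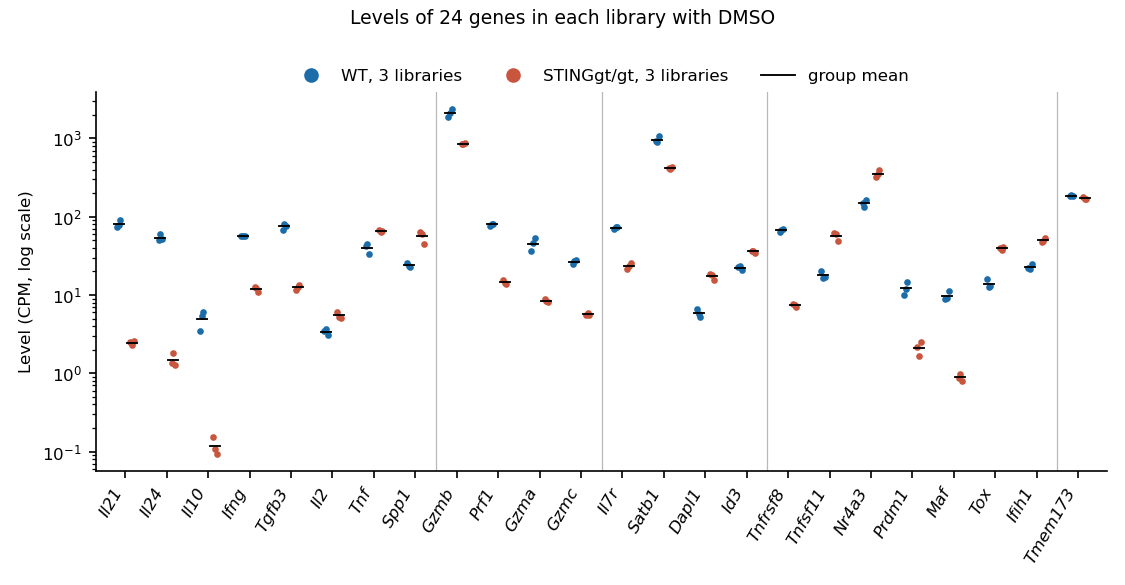
Levels of 24 genes (CPM, log scale) are shown in each of the 3 WT and 3 STINGgt/gt libraries with DMSO, with a line at the group mean. From left to right, the vertical lines set apart cytokines, cytotoxic genes, genes of naive cells, genes of activation and memory together with Ifih1, and Tmem173, and for each gene the 3 points of a genotype lie clear of the other 3.

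Receptors for chemokines and cytokines were compared next. Of 15 chemokine receptors, 11 were tested, of which 11 were called higher in WT, and the median difference was 1.49. Ccr6, a receptor of Th17 cells, stood at 8.82 to 14.5 against 2.74 to 3.21 CPM (log2 difference 1.96), and Cxcr5, which guides cells into B cell follicles and is also carried by B cells, at 62.4, 66.5 and 68.5 CPM against 27.4, 27.5 and 29.3 CPM (log2 difference 1.23, adjusted p = 9.89e-12). The difference in Ccr4 was small (0.20) and its call was lost without STINGgt/gt replicate 3 and with the replicate block in the fit of the 6 libraries. Among 9 chemokines tested of 13, 4 were higher and 1, Cxcl9, an interferon-γ target, was lower in WT at 3 to 3.35 against 4.45 to 5.44 CPM (log2 difference -0.69, adjusted p = 4.45e-05). The lower count was 2 without WT replicate 1.

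Of 26 cytokine receptor genes, 14 were higher in WT and 6 lower, with a median of 0.23. Il12rb2, the signalling chain of the IL-12 receptor, was abundant and higher in WT at 739, 705 and 803 CPM against 311, 305 and 299 CPM (log2 difference 1.3, SE 0.0494, adjusted p = 7.36e-12). Il1r2, the decoy receptor of IL-1, was at 16.8, 18.4 and 18.7 CPM against 3.74, 3.75 and 3.36 CPM (log2 difference 2.31, adjusted p = 3.62e-11), and Il21r, the receptor for IL-21, at 355 to 374 against 244 to 255 CPM (log2 difference 0.54). Il15ra, which presents IL-15, went the other way at 33.1, 33.8 and 31.2 CPM against 60.8, 60 and 62.7 CPM (log2 difference -0.91, SE 0.0466, adjusted p = 2.28e-10). Of the receptor chains for IL-10, type I interferon and IL-6, Il10ra (-0.02), Ifnar1 (-0.11), Ifnar2 (0.07) and Il6ra (0.09) did not pass the threshold, while Il6st, the shared signalling chain gp130, was lower in WT (log2 difference -0.35, adjusted p = 0.00291) and so was Il10rb (log2 difference -0.13, adjusted p = 0.0469). The call of Il10rb was lost under 8 alternatives, among them leaving out WT replicate 1 or 3 or any one of the STINGgt/gt libraries. Il23r was read at 1.02, 0.939 and 1.46 CPM in WT and at 0, 0 and 0.0311 CPM in STINGgt/gt, where 1 library held a read.

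Downstream of these receptors, the feedback inhibitor Socs3, which restrains STAT3 signalling, was higher in WT at 221, 239.8 and 229 CPM against 45.2, 44.1 and 48.8 CPM (log2 difference 2.32, SE 0.0565, adjusted p = 7.31e-14). Socs1 followed at 82.7 to 99.2 against 52.8 to 58 CPM (log2 difference 0.72), and Socs2 was lower in WT at 22.6 to 24.1 against 33.9 to 38.3 CPM (-0.60). The STAT transcription factors moved little. Stat3, Stat5a and Stat5b were higher in WT by 0.31, 0.40 and 0.35, and Stat2 and Stat6 did not pass the threshold. Over this list of 19 genes, 7 were higher and 2 lower with a median of 0.11.

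Transcripts of cytotoxic killing were read in all these libraries, and part of them were higher in WT. Of 7 granzyme and perforin genes tested among 11, 5 were higher and none lower, and the median difference was 2.23. Gzmb (ENSMUSG00000015437, chr14:56258838-56262260 on the minus strand), the serine protease that granules deliver into target cells, was read at 1893, 2084 and 2345 CPM in WT and 857, 838 and 881 CPM in STINGgt/gt (log2 difference 1.3, SE 0.0618, adjusted p = 9.09e-11). Prf1 (chr10:61297833-61304680), the pore former, was read at 76.8, 80.7 and 81.2 CPM against 15.5, 14.2 and 13.9 CPM (log2 difference 2.45, SE 0.0793, adjusted p = 1.55e-12). Gzma and Gzmc stood at 36.2, 46.5 and 53.7 CPM against 8.84, 8.48 and 8.03 CPM (log2 difference 2.43, adjusted p = 1.07e-10) and at 24.8, 27.6 and 27.6 CPM against 5.62, 5.83 and 5.6 CPM (log2 difference 2.23, adjusted p = 1.57e-12). None of the 4 overlapped between genotypes, and per kilobase of transcript Gzmb stood at 1467 CPM in WT, far above Prf1 at 30.8 and Gzma at 45.2. The granzymes C to G are near-identical copies on chromosome 14, so that reads shared between them make single values uncertain, and Gzmf, at most 0.403 CPM in any library, did not pass the threshold (log2 difference 1.35, adjusted p = 0.0874).

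The machinery around the granules differed by less. Of 17 genes for granule proteins, their release and death ligands, 10 were higher and none lower, with a median of 0.31. Unc13d was called lower in WT when WT replicate 2 was left out, and Lyst when WT replicate 3 was. Ctsw, a cathepsin of cytotoxic cells, stood at 17.4, 23.3 and 18.2 CPM against 5.75, 6.4 and 8 CPM (log2 difference 1.55, adjusted p = 9.56e-08), Nkg7, a granule membrane protein, at 63.2, 75.4 and 70.2 CPM against 34.2, 31.7 and 34.4 CPM (log2 difference 1.06, adjusted p = 3.65e-09), and Srgn, the proteoglycan that packs granzymes, at 519.9, 546 and 536 CPM against 309.6, 277 and 277 CPM (log2 difference 0.89, adjusted p = 1.12e-09). Rab27a, needed for granule docking, was higher by 0.69 and Lamp2 by 0.69. The death ligands Fasl and Tnfsf10 did not pass the threshold, at 13.1 to 13.6 against 12 to 12.5 CPM and 11.2 to 16.2 against 12.5 to 13.6 CPM. The CD8 genes, at 47.0 to 52.4 CPM in WT against 19.3 to 20.4 CPM in STINGgt/gt in sum, moved with these genes. The natural killer markers summed to 47.8 to 55.3 against 45.2 to 52.8 CPM, with 10 of the 13 called higher in WT at a median of 0.83. Eomes, the most abundant of them, was lower in WT at 17 to 19.7 against 28 to 37 CPM. The part of the CD8 and natural killer genes in the cytotoxic transcripts was not tested.

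Helper cell programmes were compared through their master regulators and their other genes. Tbx21 (T-bet), which directs Th1 cells, was level at 85.6, 93.8 and 91.6 CPM in WT and 90.3, 91.3 and 91.1 CPM in STINGgt/gt (log2 difference -0.01, SE 0.0434, adjusted p = 0.898), while 9 of the 10 Th1 genes were higher in WT with a median of 0.99. Among these was Hlx, a homeobox partner of T-bet, at 4.59, 4.83 and 4.97 CPM against 0.206, 0.328 and 0.187 CPM (log2 difference 4.29, SE 0.183, adjusted p = 2.35e-11). Gata3, the Th2 regulator, was higher in WT by a small amount at 30.7, 31.5 and 30.1 CPM against 23.1, 23.6 and 25.6 CPM (log2 difference 0.35, SE 0.0518, adjusted p = 4.02e-05), and all 9 Th2 genes tested were called higher with a median of 0.96. Foxp3, which defines regulatory T cells, was scarce and did not pass the threshold at 1.24, 1.71 and 1.39 CPM against 1.06, 1.31 and 1.56 CPM (log2 difference 0.16, adjusted p = 0.492). Among the 11 regulatory T cell genes, 4 were higher and 2 lower, the latter count being 1 without STINGgt/gt replicate 3 and under limma on the authors' values.

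Among the helper programmes the Th17 list had the highest median, with 8 of 9 genes higher and a value of 2.15, though most of its members were scarce. Ahr, a ligand-gated factor that supports Il22, was read at 6.99, 7.18 and 10.9 CPM against 1.7, 1.18 and 1.68 CPM (log2 difference 2.48, SE 0.187, adjusted p = 2.28e-08). Il17a itself did not exceed 1.44 CPM, and under the filter of at least 10 counts in every library 3 members of the list were still called. Of 12 genes of follicular helper cells, 5 were higher and 2 lower with a median of 0.14. Maf, which drives Il21 and Il10, stood at 8.81, 9.06 and 11.4 CPM against 0.876, 0.985 and 0.809 CPM (log2 difference 3.45, SE 0.148, adjusted p = 2.45e-11), and Bcl6, the regulator of follicular helper cells that B cells also express, at 7.83, 8.29 and 8.95 CPM against 5.41, 5.45 and 5.6 CPM (log2 difference 0.61, adjusted p = 9.9e-06). Pdcd1 and Sh2d1a, which these cells also carry, were lower in WT by -0.26 and -0.45 on the log2 scale.

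**Figure D5:**
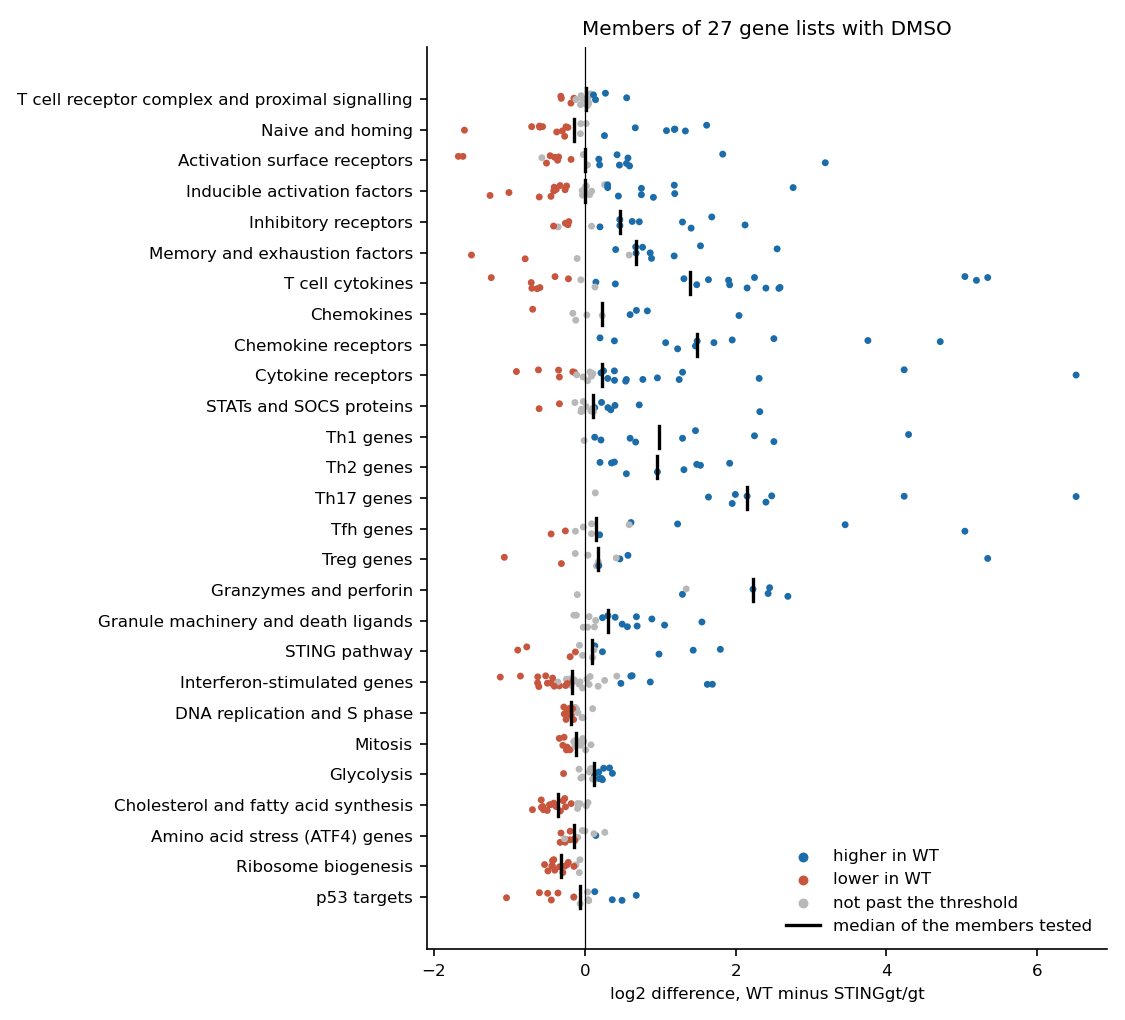
Every point is a gene tested from 1 of 27 lists, placed by its log2 difference between WT and STINGgt/gt with DMSO and coloured by its edgeR call, with a bar at the median of each list. The medians of the cytokine (1.40), chemokine receptor (1.49), Th17 (2.15) and granzyme (2.23) lists lie on the WT side, and those of the cholesterol (-0.35) and ribosome biogenesis (-0.31) lists on the other.

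Genes that mark naive and homing cells split. Of 20, 7 were higher and 10 lower in WT, with a median of -0.14. Il7r, the survival receptor of naive and memory cells, was higher at 69.8, 73.3 and 73.7 CPM against 21.7, 23.3 and 25.9 CPM (log2 difference 1.62, SE 0.0584, adjusted p = 3.91e-12). The chromatin organiser Satb1 was at 918, 893 and 1062 CPM against 415, 411 and 428 CPM (log2 difference 1.2, SE 0.0542, adjusted p = 4.65e-11) and Igfbp4 at 228, 248 and 223 CPM against 89.9, 92.9 and 94.4 CPM (log2 difference 1.33, SE 0.0516, adjusted p = 8.49e-12). Against these, Dapl1 was lower in WT at 6.55, 5.74 and 5.32 CPM against 18.8, 18.2 and 15.6 CPM (log2 difference -1.59, SE 0.0889, adjusted p = 5.8e-10). Several transcription factors of the naive state were lower as well, Id3 at 22.5, 23.2 and 20.7 CPM against 36.8, 36.6 and 34.6 CPM (log2 difference -0.70, adjusted p = 5.76e-08) and Tcf7 at 233, 236 and 265 CPM against 313, 312 and 324 CPM (log2 difference -0.37, adjusted p = 1.89e-05), with Lef1 (-0.22) and Foxp1 (-0.60) beside them. Foxo1 was higher in WT (log2 difference 0.26, adjusted p = 0.000396), and Bach2 (-0.06) did not pass the threshold. Ccr7 did not pass the threshold at 524 to 599 CPM in WT and 569 to 608 CPM in STINGgt/gt, and its ranges overlapped.

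Surface receptors of activated cells were equally mixed, with 9 of 20 higher and 8 lower. Tnfrsf8 (CD30) was the member with the largest difference, at 63.3, 68.5 and 70.3 CPM against 7.73, 7.36 and 7.03 CPM (log2 difference 3.19, SE 0.0771, adjusted p = 7.31e-14). Cd86, a costimulatory ligand that B cells and dendritic cells also carry, stood at 30.8, 30.2 and 37.8 CPM against 9.53, 8.57 and 9.83 CPM (log2 difference 1.83, adjusted p = 3.95e-11), in libraries whose B cell markers differed as given above. Il2ra, the high-affinity IL-2 receptor chain, was higher in WT at 1869.5, 1803 and 2004 CPM against 1286, 1280.4 and 1250.2 CPM (log2 difference 0.57, SE 0.0441, adjusted p = 2.86e-08). Tnfsf11 (RANKL) was lower at 20.2, 16.4 and 17 CPM against 61.7, 60.6 and 48.4 CPM (log2 difference -1.68, SE 0.092, adjusted p = 4.83e-10), and so were Cd69 and Cd44, by -0.46 and -0.40 on the log2 scale.

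Factors that the antigen receptor induces within hours were also mixed, with 9 of 27 higher and 10 lower and a median of 0.01. Nr4a3, an orphan nuclear receptor that reports receptor signalling, was lower in WT at 150.1, 133 and 163 CPM against 321, 351 and 395 CPM (log2 difference -1.26, SE 0.0766, adjusted p = 1.72e-09). Egr3, Egr1 and Nr4a1 were lower by -1.01, -0.38 and -0.40, as was Nfatc1 by -0.41, while Egr2 (-0.03) and Nr4a2 (0.02) did not pass the threshold. Of the AP-1 genes, Fosl2, Jun, Fos and Junb were higher, as were the partners Batf and Batf3, with Fosl2 at 355, 362 and 347 CPM against 149.9, 156 and 162 CPM (log2 difference 1.19, SE 0.0446, adjusted p = 6.07e-12) and the others by 0.75, 0.45, 0.30, 0.91 and 1.19. Fosb was lower in WT (log2 difference -0.45, adjusted p = 0.0151), a call lost without WT replicate 3 and with the replicate block in the fit of the 6 DMSO libraries. Fosl1 (0.26) and Jund (-0.03) did not pass the threshold. Gem, a small GTPase, was higher at 109, 117 and 125 CPM against 18.4, 16.9 and 16.3 CPM (log2 difference 2.76, SE 0.0673, adjusted p = 7.31e-14). Irf4, abundant in both genotypes at 1037 to 1182 and 1002 to 1085 CPM, did not pass the threshold.

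Of 15 inhibitory receptor genes tested, 9 were higher in WT and 4 lower with a median of 0.46, and of 13 factors of memory or exhausted cells 9 were higher and 2 lower with a median of 0.68. Prdm1 (Blimp-1), a repressor that drives terminal differentiation and also marks plasma cells, was read at 10.1, 11.8 and 14.8 CPM against 2.19, 1.67 and 2.49 CPM (log2 difference 2.55, SE 0.178, adjusted p = 9.03e-09). Nfil3 stood at 181, 196 and 193 CPM against 66.8, 64.5 and 65.5 CPM (log2 difference 1.53, SE 0.0459, adjusted p = 5.47e-13) and Hif1a, the oxygen-regulated factor, at 1204, 1086 and 1484 CPM against 718, 739 and 761 CPM (log2 difference 0.77, adjusted p = 9.53e-07). Entpd1 (CD39) was higher by 1.3, Tigit by 0.72 and Ctla4 by 0.47. In the other direction, Tox, a factor of exhausted cells, was lower in WT at 16.2, 12.8 and 13.1 CPM against 40.1, 37.5 and 41.1 CPM (log2 difference -1.50, SE 0.0756, adjusted p = 1.74e-10), and Eomes at 17, 17.3 and 19.7 CPM against 28, 29 and 37 CPM (log2 difference -0.79, adjusted p = 1.46e-05). Pdcd1 (PD-1) and Cd274 (PD-L1) were lower by small amounts, -0.26 and -0.21.

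STING's own pathway and the interferon response were examined without any agonist. Of 13 pathway genes tested, 5 were higher and 4 lower in WT with a median of 0.10. The lower count was 2 without WT replicate 1 and in the fit of the 6 DMSO libraries alone. Mb21d1 (cGAS) did not pass the threshold at 11.4 to 16 CPM in WT and 13.3 to 14 CPM in STINGgt/gt. Enpp1, which degrades the cyclic dinucleotide outside cells, was higher in WT at 24.1, 26.3 and 27.8 CPM against 12.9, 12.3 and 14.5 CPM (log2 difference 0.98, SE 0.0745, adjusted p = 2.35e-08), and the kinase Ikbke was lower at 70.5, 77.1 and 52.8 CPM against 107, 117 and 117 CPM (log2 difference -0.77, SE 0.0928, adjusted p = 5.44e-06). Irf7, the amplifier of the interferon response, was lower as well at 6.74, 11.2 and 9.46 CPM against 14.7, 15 and 21.7 CPM (log2 difference -0.89, adjusted p = 0.000171).

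Interferon-stimulated genes did not move as one, with 6 of 35 higher in WT, 14 lower and 15 not past the threshold, at a median of -0.17. The classical members Isg15 and Ifit1 overlapped between genotypes at 9.32, 13.1 and 12.7 CPM against 11.8, 10.3 and 15.4 CPM and at 3.46, 3.92 and 4.14 CPM against 3.5, 3.28 and 4.7 CPM. Ifih1 (MDA5), a sensor of double-stranded RNA, was lower in WT at 21.9, 21.5 and 25.2 CPM against 48.1, 48.8 and 52.7 CPM (log2 difference -1.12, SE 0.0667, adjusted p = 1.32e-09). The interferon-γ-responsive GTPases Gbp2, Igtp and Ifi47 were lower by -0.52, -0.40 and -0.50. Oas1a, an antiviral synthetase, was higher in WT at 3.79, 5.87 and 4.36 CPM against 1.7, 1.23 and 1.37 CPM (log2 difference 1.69, SE 0.171, adjusted p = 7.37e-07), and Usp18, the deconjugase of ISG15, at 23.9, 28.6 and 35.5 CPM against 14.9, 13.7 and 20.1 CPM (log2 difference 0.87, adjusted p = 3.86e-05).

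Genes of growth and metabolism differed by small amounts. Of 20 genes of cholesterol and fatty acid synthesis, 15 were lower in WT and none higher, with a median of -0.35. Dhcr7, the last enzyme of cholesterol synthesis, stood at 71.8, 72 and 70.1 CPM against 117, 113 and 116 CPM (log2 difference -0.69, SE 0.0473, adjusted p = 6.85e-09), and Cyp51, a lanosterol demethylase, at 324, 314 and 354 CPM against 497, 499.8 and 480.2 CPM (log2 difference -0.57, SE 0.0487, adjusted p = 9.23e-08). Hmgcs1, an enzyme of the early pathway, was lower by -0.50 and Fasn, fatty acid synthase, by -0.55. Idi1, an isomerase of the same pathway, was at 30.3, 23.8 and 36.9 CPM against 45.4, 46.3 and 45 CPM (log2 difference -0.58, adjusted p = 0.000314). The regulators Srebf1 and Srebf2 did not pass the threshold. Of 16 ribosome biogenesis genes, 13 were lower and none higher with a median of -0.31, among them Polr1b, a subunit of RNA polymerase I, at 48.3, 48.8 and 54.6 CPM against 73.3, 71.8 and 74.8 CPM (log2 difference -0.53, SE 0.0501, adjusted p = 3.22e-07), and Dkc1, the pseudouridine synthase, at 125 to 146 against 181 to 196 CPM (log2 difference -0.49, adjusted p = 1.87e-06).

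DNA replication genes followed, with 13 of 20 lower in WT, a median of -0.18 and no member beyond -0.28. Mcm6, a subunit of the replicative helicase, was at 468, 470.1 and 523 CPM against 555, 564 and 552 CPM (log2 difference -0.19, adjusted p = 0.00344). None was called higher, except that 1 was under limma-voom, under limma on the authors' values, under the filter of at least 10 counts in every library and without STINGgt/gt replicate 1. Of 20 mitosis genes 8 were lower with a median of -0.11. That count was 5 without WT replicate 1, 13 without WT replicate 3 and 5 in a fit of the 6 DMSO libraries alone. Mki67, the proliferation marker, was at 761, 733 and 894 CPM against 959, 994 and 1065 CPM (log2 difference -0.34, adjusted p = 0.00145). Of 15 genes of the ATF4 response to amino acid shortage 8 were lower, a count of 4 without STINGgt/gt replicate 1 and 5 in the fits of the 6 DMSO libraries. The number higher was 1 and varied from 0 to 2, being 0 when WT replicate 1 or 2 or STINGgt/gt replicate 2 or 3 was left out and 2 without WT replicate 3 or STINGgt/gt replicate 1.

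Glycolysis genes leaned the other way, with 8 of 18 higher in WT and 1 lower, at a median of 0.12. The higher count was 5 with the replicate block in the fit of the 6 DMSO libraries, and the lower count 2 under library-size scaling, upper-quartile scaling and DESeq2. Pgam1 stood at 264, 263 and 277 CPM against 209, 208 and 208 CPM (log2 difference 0.37, adjusted p = 1.41e-06), Pkm at 4610.1 to 4769 against 3906 to 4063 CPM (log2 difference 0.22) and Gapdh at 2571 to 2919.7 against 2309 to 2321 CPM (0.25). Slc16a1, a lactate carrier, was the one called lower (-0.28). Targets of p53 divided into 4 higher and 6 lower of 15. The cell cycle inhibitor Cdkn1a (p21) was higher in WT at 423, 440.1 and 372 CPM against 268, 261 and 240.2 CPM (log2 difference 0.68, SE 0.0737, adjusted p = 1.51e-06), while Plk2 was lower at 27.6, 26.5 and 24.5 CPM against 54.6, 55.1 and 51 CPM (log2 difference -1.04, SE 0.0531, adjusted p = 2.16e-10).

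Promoter sequence was compared for lists that leaned one way, over the 250 bases before the annotated start of each gene (RefSeq, GRCm38.p6), and a match is a description of letters only. The CCAAT box, searched as CCAAT on both strands, was present in 34.5% of 27025 promoters. It was present in 9 of 12 promoters found for the cholesterol list and in 14 of 16 for the mitosis list, against 4 of 12 for ribosome biogenesis and 3 of 21 for cytokines. The AP-1 site TGANTCA, whose letters read the same on both strands, was in 6.87% of all promoters and in 4 of 21 cytokine promoters, and the STAT site TTCNNNGAA in 7.18% and in 3 of 21. In the granzyme and perforin list each was in 1 of 11 promoters, and the STAT site was also in 2 of 12 of the ribosome biogenesis list. The sterol regulatory element, searched in 1 exact form on both strands, was in 0.0629% of all promoters and in 0 of 12 of the cholesterol list, which says only that those letters were not in these windows. The 4 promoters below belong to genes of the cytotoxic, cytokine and cholesterol lists, Gzmb (chr14:56262335-56262584, minus strand), Ifng (chr10:118440796-118441045, plus strand), Hmgcs1 (chr13:119690101-119690350, plus strand) and Idi1 (chr13:8885356-8885605, plus strand), and capitals mark an AP-1 site in Gzmb, a STAT site in Ifng and CCAAT boxes, here as ATTGG on the printed strand, in the pair of cholesterol genes.
Gzmb: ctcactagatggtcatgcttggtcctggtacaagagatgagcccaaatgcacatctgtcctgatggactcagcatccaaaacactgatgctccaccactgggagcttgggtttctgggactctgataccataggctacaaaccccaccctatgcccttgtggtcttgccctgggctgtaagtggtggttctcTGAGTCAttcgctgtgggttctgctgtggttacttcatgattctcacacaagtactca
Ifng: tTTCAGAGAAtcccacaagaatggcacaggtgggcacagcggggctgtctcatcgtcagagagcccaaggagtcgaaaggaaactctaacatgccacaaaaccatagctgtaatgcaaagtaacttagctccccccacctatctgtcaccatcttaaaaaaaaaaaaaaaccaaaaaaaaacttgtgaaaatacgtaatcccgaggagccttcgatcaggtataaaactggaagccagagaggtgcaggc
Hmgcs1: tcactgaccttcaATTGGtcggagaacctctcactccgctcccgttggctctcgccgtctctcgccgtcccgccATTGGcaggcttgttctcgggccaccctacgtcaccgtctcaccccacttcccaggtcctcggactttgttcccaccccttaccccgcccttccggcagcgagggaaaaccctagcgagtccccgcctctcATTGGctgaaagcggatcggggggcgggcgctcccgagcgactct
Idi1: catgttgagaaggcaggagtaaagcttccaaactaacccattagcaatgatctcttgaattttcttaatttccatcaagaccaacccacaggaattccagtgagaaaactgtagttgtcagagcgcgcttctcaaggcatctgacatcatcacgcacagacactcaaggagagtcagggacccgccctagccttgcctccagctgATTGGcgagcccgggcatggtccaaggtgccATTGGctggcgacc

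The 10 genes with the largest rise in WT, among those with a mean of at least 50 counts and no overlap between genotypes, held 7 that belong to none of the lists, Gm12534 of the Il21 locus among them. Serpinb5 (maspin), a serpin, was at 5.1, 6.57 and 7.58 CPM in WT and at 0.0515, 0.0821 and 0.0622 CPM in STINGgt/gt (log2 difference 6.56, SE 0.316, adjusted p = 9.92e-11). Timp1, an inhibitor of matrix proteases, was at 14.3, 13.9 and 13.1 CPM against 0.309, 0.219 and 0.28 CPM (log2 difference 5.65, SE 0.437, adjusted p = 2.99e-08). Inhba, the activin A chain, was at 9.8, 6.24 and 7.46 CPM against 0.515, 0.383 and 0.218 CPM (log2 difference 4.34, SE 0.237, adjusted p = 4.61e-10), and Ido1, which degrades tryptophan, at 4.73, 4.76 and 6.12 CPM against 0.386, 0.164 and 0.124 CPM (log2 difference 4.48, SE 0.236, adjusted p = 3.02e-10). The cadherin gene Cdh17 and the IL-8 receptor gene Cxcr1 were higher by 4.36 and 4.54. In each of these genes the STINGgt/gt level was under 0.6 CPM, so that it rested on few reads.

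The 10 genes with the largest fall in WT, under the same limits on counts and overlap, were of low level too. Over all genes tested, without those limits, the lowest log2 difference was -8.43. Actbl2, an actin-like gene, was at 0.401, 0.47 and 0.268 CPM in WT and 3.71, 3.42 and 2.46 CPM in STINGgt/gt (log2 difference -3.12, SE 0.251, adjusted p = 5.01e-08), and Dnah7a, an axonemal dynein, at 0.765, 0.906 and 1.05 CPM against 6.52, 6.24 and 6.04 CPM (log2 difference -2.76, SE 0.125, adjusted p = 4.65e-11). Serpinc1 (antithrombin), Fam26f and the guanylyl cyclase subunit Gucy1a3 were lower by -2.40, -2.35 and -2.06 on the log2 scale. Sntb1, Pla2g4f, Igfbp7, Gpr34 and Sspo lay between -1.97 and -1.90. Some of the genes given above share ground with other genes, taken over whole gene spans with introns. Reads there may have been given to either gene, or tallied as ambiguous and left out. Timp1, Serpinc1, Igfbp7 and Gpr34 overlap another gene on the opposite strand, as do Tgfb3, Il2, Il16, Csf2, Il1r2, Il10ra, Il12rb2, Cxcr5, Ctsw, Maf, Gata3, Foxp3, Sh2d1a, Tcf7, Bach2, Foxo1, Tox, Hif1a, Cd44, Cd247, Lcp2, Irf7, Mb21d1, Gbp2, Ifi47, Fosl1, Jun, Junb, Jund, Stat6, Gapdh, Srebf1, Cyp51, Dkc1 and the pair Stat3 and Stat5a. Overlap with a gene on their own strand was found for Dnah7a, Gucy1a3, Entpd1, Ctla4, Lta, Ltb, Dkc1, Gata3, Foxp3, Cd247, Tcf7, Bach2, Foxp1, Il10ra, Il10rb, Ifnar2, Rab27a, Ifi47, Igtp, Srebf1 and Srebf2, several of these partners being short RNA or predicted genes.

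The STINGgt/gt libraries given CMA gave a further reading of the same genotype, from libraries that the comparison above did not test. Il21 was at 1.36 to 2.58 CPM in them, Il10 at 0.0905 to 0.16, Ifng at 8.55 to 11.7, Prf1 at 10 to 12.9 and Gzmb at 631 to 676 CPM, below every WT library with DMSO. Nr4a3 was at 379.6 to 433 CPM, Tox at 39.4 to 42.6, Tnfsf11 at 58.8 to 63.1 and Dhcr7 at 111 to 118 CPM, above every WT library with DMSO. Other genes called between the genotypes did not stay clear of WT there, among them Fos at 7.13 to 8.37 against 7.48 to 8.39 CPM, Ccl3 at 8.82 to 10.5 against 8.38 to 11.8 CPM and Ccl4 at 14.2 to 16.7 against 14.7 to 19.3 CPM. All these genes were picked after their values were seen. These libraries differ from the WT libraries in treatment as well as genotype, and no test was made between them. The sample names in the labels share their leading digit between most DMSO and CMA libraries of the same genotype and number. Whether such libraries share animals or cultures is not given, so the CMA libraries may not be independent of the DMSO libraries.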

How the data were processed

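The authors deposited raw read counts per Ensembl gene for each library and a table of log2 normalized expression of 11921 genes. Sequencing was of single reads from 1000 ng total RNA with a stranded mRNA kit. Per the labels' processing notes the tools were cutadapt 1.3, STAR 2.4.0f1, HTSeq 0.6.1 and RSEM 1.2.16 on GRCm38, and the annotation and strand setting are not given in the sources used here. Reads that named no gene were left out of totals. Of all tallied reads, 4.86% to 5.47% lay outside features in WT and 5.98% to 6.54% in STINGgt/gt. Reads not uniquely placed, which affect near-identical genes most, were 29.6% to 30.3% in WT and 28.1% to 29.0% in STINGgt/gt. Neither of these measures overlapped between genotypes, and their bearing on the differences was not tested. Ambiguous reads were 0.594% to 0.635%.

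Of 38924 gene IDs, 20606 had a count in the 6 DMSO libraries and 13811 passed edgeR's filterByExpr, at 27414450 to 41791903 reads on genes per library. Counts of all 12 libraries were fitted in 1 model of 4 groups (edgeR 4.0.16, R 4.3.3, TMM scaling, quasi-likelihood test, Benjamini-Hochberg adjustment). Standard errors came from the log2 difference and its F value. CPM are TMM-scaled. Symbols and coordinates came from the deposited table and GENCODE M21. On simulated counts for this comparison, with 50 of the 13811 genes changed at each size, 19, 39, 47 and 49 genes were recovered at 1.3-, 1.5-, 2- and 4-fold, with 12 false calls. The simulation gave every gene the same spread, and unchanged genes the same mean level in all groups. In the data many more genes differed and the spread was unequal, so these numbers are not error rates of the comparison itself.

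The members and the 42 gene lists (560 of 566 symbols measured) were chosen with earlier results of these data known. Named genes were the 10 largest rises and falls (at least 50 mean counts, no overlap), up to 3 called genes per list with its most abundant gene and the largest against the majority, and preset genes, 162 in all. Other genes named were chosen after their values were seen. Some named genes are not reported here. No list was tested as a set. Alternatives were other scaling, filters, thresholds, DESeq2 1.42.0, limma-voom and limma 3.58.1 on the authors' log2 values, the replicate number as a block, the 6 libraries alone, and each library left out.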

Additional observations from a re-analysis of the deposited data

How the results depend on the processing

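Against 3160 genes higher and 2740 lower in WT, the counts stayed within 1.5 times of these under 17 alternatives each and fell to 791 and 215 when a difference of at least 2-fold was required as well. Leaving out each of the 6 libraries in turn gave 2647 to 3281 genes higher and 2355 to 3130 lower. The titles number the libraries 1 to 3 in both genotypes, but same-numbered libraries did not deviate from their genotype means together (correlations -0.0514, -0.0964 and -0.0052 over the genes tested), so the numbers were not taken to pair them. With the replicate block there were 3082 and 2703 calls in the fit of 4 groups, and 2325 and 1975 in the fit of the 6 DMSO libraries. Stability was examined for the genes of the lists and of the naming rule. No called gene among them changed direction under any alternative that could be fitted, while the sign varied for some that were not called, such as Tbx21, Isg15 and Ifit1. Of 379 that were called, 321 kept their call under all of up to 16 settings other than the stricter thresholds and 58 lost it in 1 or more. Of the genes described by name these were Ccr4, Cd3e, Csf2, Fosb, Il10rb, Cst3, Mnda, Ddx3y and Kdm5d, and the cause was not tested. Irf4, Tmem173, Gzmf, Tmem181a, Trbc2, Bach2, Fosl1, Il6ra, Ifnar1, Mb21d1, Unc13d, Lyst and Srebf2 passed the threshold only under 1 or more alternatives. Of 84 list counts, 56 moved by over 1.5 times under some setting, 47 of them under the 2-fold requirement. Depth limits the genes with few reads, since the lowest STINGgt/gt libraries held 3 reads of Il10 and 2 of Serpinb5.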

Other observations

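Immunoglobulin genes were among the large rises in WT. Of 134 tested, 115 were higher and none lower, and 104 of the 791 genes at least 2-fold higher in WT were immunoglobulin genes. Heavy-chain V segments summed to 46.6 to 57.1 CPM in WT and to 13.5 to 14.9 CPM in STINGgt/gt, with 50 of 51 higher and a median difference of 1.87. Kappa V segments summed to 85.9 to 93.2 against 35.5 to 39.7 CPM with 53 of 65 higher, and the 4 γ constant genes to 60.8 to 64.7 against 20.4 to 21.3 CPM with all 4 higher.

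The values that follow were chosen after they were seen. Genes that were at 0 in every library of 1 genotype with at least 5 counts in each library of the other numbered 4 in WT and 3 in STINGgt/gt. Dynlt1b (chr17:6430112-6436296), a dynein light chain gene, had 33, 23 and 23 counts in STINGgt/gt and none in WT, at least 24.0-fold lower against a floor of 3 counts over the group. The adjoining pseudogene Tmem181b-ps (chr17:6438524-6467022) had 24, 17 and 18 counts against none. Another gene ID of that name, for which no coordinates were found, had 53, 39 and 38 counts against none, at least 39.5-fold lower in WT. Dynlt1b and both IDs of Tmem181b-ps were also at 0 in all 3 WT libraries given CMA. Their near-identical neighbours Dynlt1a and Tmem181a did not pass the threshold, at 2.22 to 2.95 against 2 to 2.55 CPM and 8.56 to 10.3 against 10.2 to 10.6 CPM, and these overlap each other on opposite strands.

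The interferon-inducible Ifi200 genes of chromosome 1 went both ways. Mndal was lower in WT at 19.4, 21.2 and 22.8 CPM against 71.4, 66.4 and 74.5 CPM (log2 difference -1.74, SE 0.073, adjusted p = 1.98e-11) and Ifi203 at 17.9, 17.6 and 19.8 CPM against 56.4, 53.6 and 64.8 CPM (log2 difference -1.65, SE 0.0889, adjusted p = 3.86e-10). The pair overlap on the same strand, and Mndal also overlaps Mnda on that strand. Reads in shared ground may have been given to either gene or left out as ambiguous, so these values may not be independent. Mnda was higher in WT at 6.74 to 9.31 against 5.91 to 7.59 CPM (log2 difference 0.30, adjusted p = 0.0394), a call lost under 11 alternatives. Pyhin1 was higher at 18.8 to 26.6 against 14.6 to 18.1 CPM (log2 difference 0.41, adjusted p = 0.00627). Ifi204 and Ifi205 were higher in WT at 0.801 to 1.27 against 0.274 to 0.515 CPM and 0.473 to 0.772 against 0.124 to 0.206 CPM, and Aim2, which overlaps Cadm3 on the opposite strand, did not pass the threshold (log2 difference -0.10). Around Tmem173, within 10 Mb on either side, 94 genes were tested and 37.2% were called, 13 higher and 22 lower.

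Of transcripts best known from neutrophils some were read and others not. Ly6g, a surface marker of these cells, was read at 1.71, 1.64 and 2.61 CPM in WT and 0, 0.0274 and 0.0311 CPM in STINGgt/gt, Cxcr1 at 2.61 to 3.79 against 0.0821 to 0.156 CPM and Cxcr2 at 1.84 to 2.32 against 0.0547 to 0.155 CPM. S100a8 and S100a9 reached at most 0.0731 CPM in any library, and Camp, Elane and Retnlg were at 0 in all 6.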
